A study of Mus musculus with 38 samples.

Results

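The genes described here are 10 genes that neural progenitors and other early neural cells are known to use: Prtg, Gpc3, Ednrb, Mdk, Ptn, Nedd9, Fabp5, Fabp7, Nes and Tubb3. They were chosen by name, without a threshold on their values, but with earlier results of these data known. The paper used Prtg, Mdk and Fabp5 among the markers by which it named its ectoderm-like single cells. Counts of the genes beside shares of all genes are therefore descriptions and no independent support. All 10 were found among the 23481 genes of the bulk RNA-seq table and in the tables of both single-cell assays. Mouse embryonic stem cells (mESCs) of the E14 line were held in 2i/LIF (1 µM of the MEK inhibitor PD0325901, 3 µM of the GSK3 inhibitor CHIR99021 and 1000 U/ml LIF) and were then exposed to 0.25 µM retinoic acid (RA) in N2B27 medium for up to 96 h. The 38 samples were 25 bulk libraries, 9 single-cell plates of the SCRB-seq assay and 4 sets of single cells of the SMART-seq2 assay. Bulk libraries were made from mESCs (2 libraries) and from whole cultures at 6, 12, 24, 36, 48, 60, 72, 84 and 96 h (1 library each). At 48 h, PDGFRA- cells were sorted into quartiles by the surface protein CD24 (Q1 lowest, Q4 highest). At 72 h, PDGFRA- cells were sorted into terciles (T1 to T3), and PDGFRA+ CD24- cells were collected as well. At 96 h, PDGFRA-/CD24+ (ectoderm-like) and PDGFRA+/CD24- (XEN-like, for extraembryonic endoderm) cells were sorted in 2 biological replicates each. The dose of RA before these sorts is not given in the labels. The remaining bulk libraries, 1 of each, were an ectoderm-like culture after 5 passages on poly-D-lysine and laminin and a XEN-like culture after 3 weeks as floating aggregates, both with 20 ng/ml EGF and 10 ng/ml FGF2. All material came from this 1 cell line.

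Neural progenitors line the early neural tube and divide before they give rise to neurons and glia. They are known by intermediate filaments such as nestin, by lipid carriers of the fatty acid binding protein family, by adhesion and guidance receptors on the surface, and by growth factors that bind heparan sulfate. RA is a signal that patterns the neural tube and is widely used to turn mESCs into neural cells, while the same exposure can also yield cells of the extraembryonic endoderm.

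The sequence before the start of each gene is shown for 5 of the 10 genes because these rose in the same culture and from very different levels, and because their windows, unlike those of Prtg, Nedd9 and Tubb3, lay for the most part outside annotated exons. Nes is shown as the window with no CCAAT. RefSeq (GRCm38.p6) gave 250 bases before the start for 8 of the genes, and no entry was found for Mdk and Fabp5. The starts are those of RefSeq, and the Ednrb window lies inside the gene as GENCODE places it (chr14:103814625-103844402). Bases that fell in a GENCODE M21 exon are left out below. Capitals mark matches, on either strand, to AGGTCA (letters bound by retinoic acid receptors), ACAAAG or ACAATG (letters bound by SOX factors) and CCAAT (the CCAAT box, bound by NF-Y).
Gpc3, chrX:52613975-52614224, - strand: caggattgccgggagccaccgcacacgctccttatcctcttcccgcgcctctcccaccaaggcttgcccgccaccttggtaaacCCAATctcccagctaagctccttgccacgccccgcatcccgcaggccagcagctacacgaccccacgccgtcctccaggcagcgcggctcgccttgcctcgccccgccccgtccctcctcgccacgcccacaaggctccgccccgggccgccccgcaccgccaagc
Ednrb, chr14:103843702-103843951, - strand: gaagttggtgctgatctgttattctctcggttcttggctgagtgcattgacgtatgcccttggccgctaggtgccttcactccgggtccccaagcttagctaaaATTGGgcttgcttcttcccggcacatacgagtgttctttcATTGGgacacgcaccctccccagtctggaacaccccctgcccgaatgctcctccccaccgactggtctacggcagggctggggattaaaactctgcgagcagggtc
Ptn, chr6:36810221-36810429, - strand: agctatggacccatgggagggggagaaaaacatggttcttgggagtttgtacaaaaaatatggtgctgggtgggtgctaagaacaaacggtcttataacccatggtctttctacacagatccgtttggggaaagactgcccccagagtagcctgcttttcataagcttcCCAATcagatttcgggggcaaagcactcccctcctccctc
Fabp7, chr10:57784673-57784880, + strand: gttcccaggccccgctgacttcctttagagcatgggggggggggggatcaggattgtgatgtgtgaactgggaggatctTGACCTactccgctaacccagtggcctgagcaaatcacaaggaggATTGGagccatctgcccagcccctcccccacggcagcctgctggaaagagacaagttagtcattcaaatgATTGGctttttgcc
Nes, chr3:87970843-87971077, + strand: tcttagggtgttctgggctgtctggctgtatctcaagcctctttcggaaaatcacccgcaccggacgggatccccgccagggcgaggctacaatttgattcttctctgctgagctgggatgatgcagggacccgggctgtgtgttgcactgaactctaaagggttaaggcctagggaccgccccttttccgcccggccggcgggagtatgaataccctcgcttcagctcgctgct

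CCAAT stood in 7 of the 8 windows, all but that of Nes, and in 33.8% of the 32851 windows of the RefSeq table. Ednrb and Fabp7 held it at 2 places each, Gpc3 and Ptn at 1. AGGTCA stood only in the window of Fabp7, 171 bases before the start, against 14% of all windows. A direct repeat of AGGTCA with 5 bases between the copies was in none of the 8 windows and in 0.00913% of all. ACAAAG stood in the windows of Prtg and Nedd9 (16.5% of all), ACAATG in those of Prtg and Tubb3 (10.7%), GGGCGG (the GC box) in 5 of 8 (32.7%) and TATAAA (the TATA box) in that of Nedd9 (12.4%). Their GC content ran from 52% to 75.2%, against a median of 52.4% over all windows. These are matches of letters and no measure of binding.

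The 25 bulk libraries held 1063830 to 2459483 UMIs (unique molecular identifiers, random tags that keep PCR copies of a molecule from being counted again), with a median of 1665383, and values are given as UMIs or as UMIs scaled by depth (CPM, with every library brought to the same total). Replicate pairs correlated at 0.972 to 0.974 (Pearson, log2 values). SCRB-seq gave 2448 cells with more than 2000 UMIs, 137 to 335 per time point, and SMART-seq2 gave 82 to 89 cells per time point. Markers of the labelled cell types were checked first. In the sorted ectoderm-like libraries, the 9 neural progenitor markers summed to 140.2 and 168 CPM, with none at 0 in both libraries. The sums were 5.47 and 6.6 CPM in sorted XEN-like cells, where Sox3, Pax6 and Hes5 were at 0. In mESCs the same markers, which include Sox2, summed to 91.9 and 136 CPM, with Hes5 and Dll1 at 0, so the sum separates mESCs little. XEN markers (11 genes) summed to 485 and 1779 CPM in the sorted ectoderm-like replicates and to 12049 and 6664 CPM in the XEN-like ones. The ectoderm-like culture went against its label by the same markers: neural progenitor markers summed to 12.3 CPM, with Sox1, Sox3, Hes5, Msi1 and Zbtb16 at 0, and the 8 mesenchyme markers summed to 3899 CPM, against 5.08 to 22.8 CPM in the sorted libraries, led by 2712 UMIs of Col3a1 (fibrillar collagen) and 1440 of Dcn (decorin). In the XEN-like culture Cd24a was at 421 CPM, against 9.14 and 14.6 CPM in sorted XEN-like cells. Both are called here by their labels. In bulk samples, fewer cells of a type and less RNA per cell cannot be told apart.

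The time course asked when each gene first appeared. Each time point is 1 library, so values are descriptions and no test was run. Onset was taken as the first time from which a gene stayed at least 2-fold above the higher of the 2 mESC libraries. Of the 10 genes, 9 were at least 2-fold above mESCs at 96 h, and among all genes with at least 50 UMIs this share was 16.4% (7 of the 10 genes had that many, of which 6 were past 2-fold). By this rule onset was at 24 h for Mdk, at 36 h for Prtg, and at 48 h for Ednrb, Ptn, Nedd9 and Fabp5. It was at 60 h for Gpc3, 72 h for Fabp7 and 84 h for Nes, and Tubb3 had none. The order depends on the rule and on the mESC library. Nes was first past 2-fold at 60 h (10.2 CPM) but not at 72 h (7.63 CPM against 3.94). Gpc3 was at 69.5 CPM at 48 h, against 10.1 and 37.4 CPM in mESCs. Fabp5 was at 79.3 CPM at 36 h, against 63.4 and 19.2 CPM. Mdk was already at 198 CPM at 12 h, against 86.2 and 105 CPM, just short of 2-fold.

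The growth factors of the set are Mdk and Ptn. Mdk (midkine, chr2:91929805-91932297, a heparin-binding growth factor) was present in mESCs at 197 and 241 UMIs, and counted 189, 449, 667, 1107, 2890, 2278, 2144, 1833 and 1387 UMIs from 6 to 96 h. In CPM it was highest at 60 h, at 1368, 13-fold above the higher mESC library, and was at 711 at 96 h, 7.44-fold above both mESC libraries (95% interval 6.68 to 8.3, counting error only, as for all intervals here). Midkine thus had the earliest onset of the 10 in bulk. SCRB-seq differed at 6 h: per 10000 UMIs, Fabp5 went from 0.0106 at 0 h to 0.116 and Prtg from 0.239 to 0.0578. Mdk was at 1.01 and 1.1 there. In bulk, Fabp5 at 6 h (53.8 CPM) lay between the mESC libraries (63.4 and 19.2 CPM). Ptn (pleiotrophin, chr6:36714929-36810220, the other member of the midkine family) had 0 UMIs in both mESC libraries, between 1 and 3 UMIs from 6 to 36 h, and then 42, 57, 120, 124 and 92 UMIs at 48, 60, 72, 84 and 96 h. It was at least 35.9-fold higher at 96 h than in mESCs, against a floor of 3 UMIs per library. The early counts of Ptn, at most 3 UMIs in a library, are too low to be read as expression, and their source was not tested. In SMART-seq2, Ptn was above 1 RPKM (reads scaled by length and depth) in 1 of 82 cells at 0 h. The same held for 2 of 86 cells at 12 h and 6 of 89 at 24 h. Both growth factors of the family therefore rose, a day apart by the onset rule.

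Prtg, Ednrb and Gpc3 are surface receptors and co-receptors. Prtg (protogenin, chr9:72806874-72917291, a receptor of the DCC family found in the early neural tube) counted 14 and 8 UMIs in mESCs, 8, 10 and 20 at 6, 12 and 24 h, 59 at 36 h and then 280, 214, 282, 280 and 190 UMIs. Its CPM was highest at 72 h, 25.1-fold above the higher mESC library, and 20.3-fold above both at 96 h (13 to 33.1). Ednrb (endothelin receptor type B, chr14:103814625-103844402) had 0 and 1 UMIs in mESCs, 0 to 3 through 36 h, and 103, 119, 115, 94 and 102 UMIs from 48 h on. Between 36 and 48 h it rose 23.1-fold (7.68 to 114), and it stayed within 41.9 to 71.5 CPM afterwards. In these whole cultures its change was closest to a single step. In SCRB-seq it went on rising, from 0.369 UMIs per 10000 at 48 h to 1.12 at 72 h and 1.71 at 96 h. Gpc3 (glypican 3, chrX:52272426-52613950, a heparan sulfate proteoglycan of the membrane that binds growth factors) differed between the mESC libraries, at 23 and 86 UMIs (10.1 and 37.4 CPM), was at 22 UMIs (11 CPM) at 24 h, close to the lower mESC library, and counted 171, 188, 324, 300 and 163 UMIs from 48 to 96 h. Its level at 96 h was 2.23-fold above the higher mESC library and under 2-fold with TMM-scaled totals.

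Fabp5 and Fabp7 carry fatty acids within the cell, and Fabp7 (chr10:57784881-57788450) is a classic gene of radial glia. Fabp5 (chr3:10012548-10016607) counted 145 and 44 UMIs in mESCs, 62 at 24 h, 131 at 36 h and 542, 400, 463, 551 and 418 UMIs from 48 to 96 h. At 96 h it was 5.19-fold above both mESC libraries (4.36 to 6.2) and 3.38-fold above the higher of them. Fabp7 had 0 UMIs in both mESC libraries and 0, 0, 1, 0, 3 and 0 from 6 to 60 h, and then 10, 34 and 35 UMIs at 72, 84 and 96 h. By the onset rule the lipid carriers began 1 day apart, and Fabp7 was at least 13.7-fold above mESCs at 96 h.

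Nes, Nedd9 and Tubb3 belong to the cytoskeleton or its adhesion sites. Nes (nestin, chr3:87971078-87980451, the intermediate filament of dividing neural progenitors) counted 9 and 7 UMIs in mESCs, 4 to 17 from 6 to 72 h, and 31 and 34 at 84 and 96 h, 4.99-fold above both mESC libraries (2.68 to 9.68). Nedd9 (a Cas-family docking protein of focal adhesions, chr13:41309581-41487362) had 0 UMIs through 12 h and in mESCs, 2 and 3 at 24 and 36 h, and 15, 25, 38, 32 and 41 UMIs from 48 h, at least 16-fold higher at 96 h. Its exons overlap the antisense gene Gm32401, and reads of the 2 cannot be told apart here. Tubb3 (chr8:123411424-123422015, class III beta-tubulin, a marker of neurons) counted 199 and 115 UMIs in mESCs (87.1 and 50.1 CPM), 139 UMIs at 12 h (61.2 CPM, above the lower mESC library), 45 UMIs at 60 h, its lowest level (27 CPM), and 94 UMIs at 96 h, 0.703 of the level in both mESC libraries (0.552 to 0.888). Tubb3 was the only gene of the 10 without an onset.

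**Figure D1:**
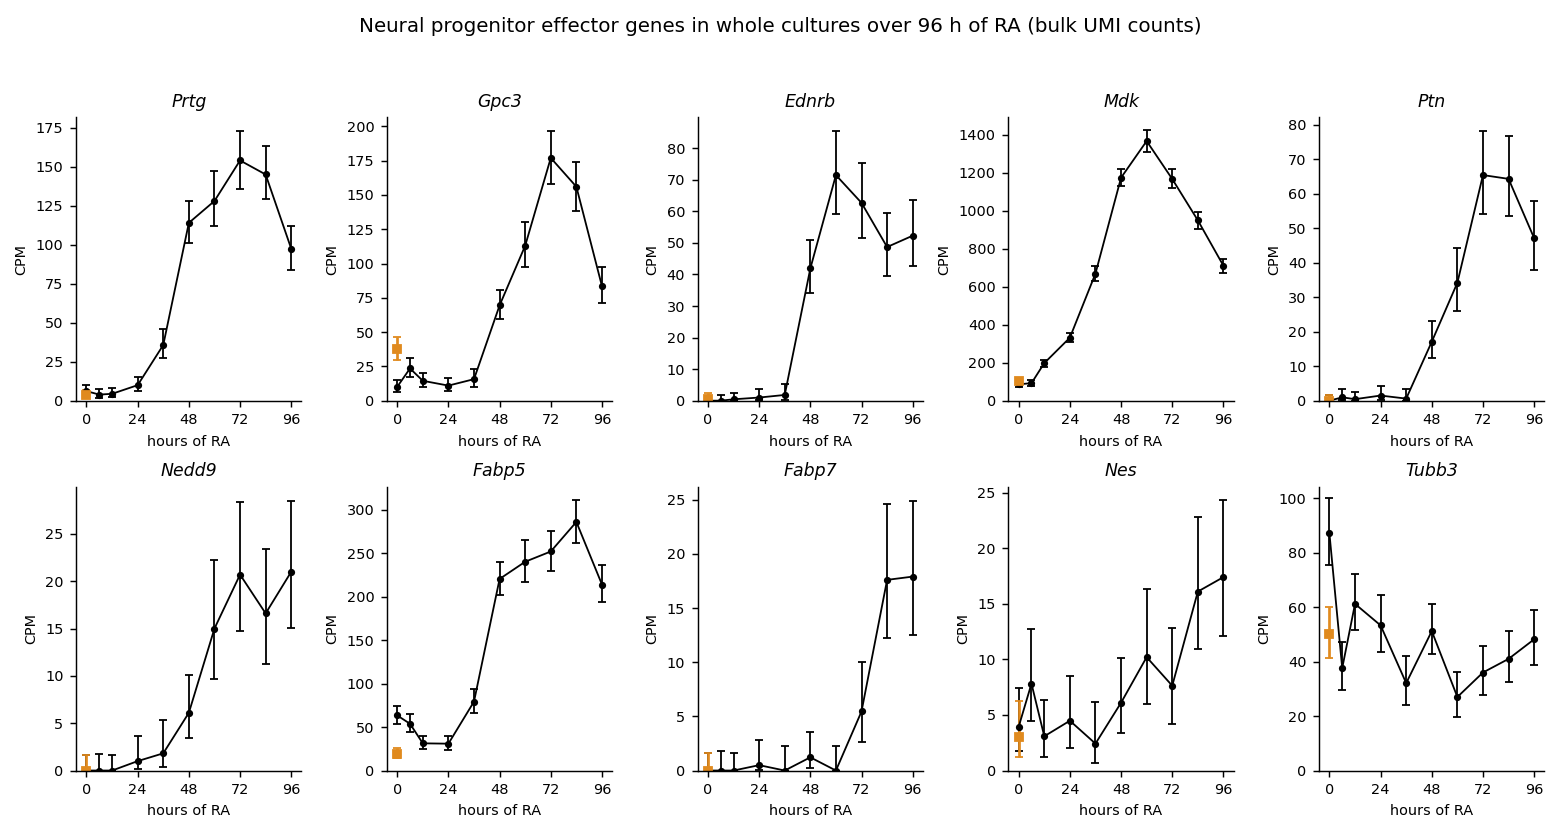
CPM of the 10 genes in whole cultures against hours of RA (x axis; linear y axes that differ by panel), with exact 95% Poisson intervals as bars. At 0 h the circle is mESC library 1 and the square is mESC library 2. Mdk climbs from 12 h, most others step up at 48 h, and Fabp7 and Nes rise last. Tubb3 lies below mESC library 1 at all later times but above library 2 at 12, 24 and 48 h.

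Gene-to-gene likeness over the 25 libraries is given as a description. Pearson correlations of log2(CPM + 1) between members reached 0.89 for Nes and Ptn, 0.86 for Ednrb and Gpc3 and 0.82 for Ednrb and Prtg, and those of Tubb3 with the other 9 ran from -0.48 to 0.09. Among 6304 genes, the profile most like that of Prtg was 1110004F10Rik (0.92), followed by Hmgb3 (0.91) and Ormdl1 (0.88). Ednrb was closest to Gdpd1 (0.91), Fzd3 (a Wnt receptor) and the sort gene Cd24a (0.90 each). Gpc3 was closest to Lin28b (0.91), Hmga2 and Ptbp2 (0.89 each), and Mdk to Marcksl1 (0.90), 2810417H13Rik (0.89) and Peg10 (0.88). For Ptn the list was Nnat (0.92), Cdh2 (N-cadherin) and Dclk1 (0.91 each), and for Nedd9 it was Twsg1, Nr2f2 (0.93 each) and Serf1 (0.91). Fabp5 was closest to Mex3c (0.92), Ptplad1 and Sema3c (0.90 each), Fabp7 to Vtn (0.90), Foxb1 (0.89) and Lbh (0.82), and Nes to Crabp1 (0.90), Ptn (0.89) and Vcan (0.87). Tubb3 was closest to Gm5177 (0.82), Rpl24 (0.81) and Gm6251 (0.79). The 25 libraries share a cell line and overlap in time, so these values carry no p.

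The CD24 gates asked whether the genes followed the surface marker within the PDGFRA- cells. Each gate is 1 library with no replicate. At 48 h, 7 of the 10 genes were at least 2-fold higher in Q4 than in Q1 (Prtg, Gpc3, Ednrb, Mdk, Ptn, Fabp5 and Nes), including all 4 that had at least 50 UMIs, against 2.1% of all genes with that many. Prtg counted 59, 117, 97 and 181 UMIs from Q1 to Q4 and rose in CPM at each step, 2.9-fold in all (2.15 to 3.95). Ednrb counted 4, 6, 11 and 36 UMIs, an 8.5-fold difference (3.05 to 32.9) and the largest of the 10 at 48 h. Mdk counted 351, 425, 471 and 792 UMIs (2.13-fold, 1.88 to 2.42). In these 3 receptors and growth factors the order of the gates was the order of CD24. Fabp5 counted 111, 108, 105 and 275 UMIs, which are 74.2, 77.1, 98.7 and 174 CPM, a 2.34-fold difference (1.87 to 2.94). Gpc3 was uneven, at 19, 37, 18 and 52 UMIs, with a 2.58-fold difference (1.5 to 4.63). In Ptn (3 and 11 UMIs in Q1 and Q4) and Nes (4 and 10) the intervals of the ratio, 0.914 to 19.3 and 0.681 to 10.3, include 1. Nedd9 had 0 to 3 UMIs in each gate, Fabp7 had 1 UMI in Q4 and 0 elsewhere, and Tubb3 counted 34, 31, 33 and 43 UMIs, with a ratio of 1.19 (0.744 to 1.93). Relative to Gapdh the count fell from 7 to 4 genes, with Mdk, Fabp5 and Nes no longer past 2-fold. Rising at each step from Q1 to Q4 was seen in Prtg, Ednrb, Mdk and Fabp5, of which 3 are among the 4 genes with at least 50 UMIs, against 10.9% of all genes with at least 50 UMIs.

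At 72 h the gates were terciles. In T3, 7 genes were at least 2-fold higher than in T1 (Gpc3, Ednrb, Ptn, Nedd9, Fabp5, Fabp7 and Nes), 3 of the 5 with at least 50 UMIs, against 2.19% of all genes with that many. Ednrb counted 26, 67 and 175 UMIs from T1 to T3 (6.65-fold, 4.39 to 10.5). Gpc3 counted 52, 143 and 250 UMIs (4.75-fold, 3.51 to 6.53), and Fabp5 counted 120, 215 and 452 (3.72-fold, 3.04 to 4.59). These 3 rose at both steps. Ptn counted 7, 24 and 40 UMIs (5.65-fold, 2.5 to 14.9), Nedd9 9, 12 and 39 (4.28-fold, 2.04 to 10.1), and Nes 4, 12 and 20 (4.94-fold, 1.65 to 19.9). Fabp7 was at 0 in T1 and at 4 and 7 UMIs in T2 and T3. The ratio was smaller for the genes with the earliest onset: Prtg counted 150, 204 and 274 UMIs (1.8-fold, 1.47 to 2.22), and Mdk counted 642, 864 and 919 (1.41-fold, 1.28 to 1.57). Tubb3 went the other way, at 33, 16 and 18 UMIs, with a ratio of 0.539 (0.286 to 0.985). A rise at each step was seen in 8 of the 10 genes, in all but Mdk and Tubb3, and in 4 of the 5 with at least 50 UMIs, against 33.3% of all genes with at least 50 UMIs. Pluripotency markers (8 genes) summed to 4591 CPM in T1 and 1265 CPM in T3, and XEN markers to 797 and 356 CPM. Their part in the differences between the gates was not tested.

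PDGFRA+ CD24- cells of the same time point were low in most of these genes. Against them, 8 genes were at least 2-fold higher in T3, including all 5 with at least 50 UMIs, against 10.1% of all genes with that many. They held 1 UMI of Ednrb against 175 in T3 (183-fold, 32.4 to 7259), 8 of Gpc3 against 250 (32.6-fold, 16.3 to 76.4) and 97 of Mdk against 919 (9.89-fold, 8.02 to 12.3). Prtg was at 45 UMIs in PDGFRA+ cells (6.36-fold lower than T3, 4.63 to 8.92) and Fabp5 at 105 (4.5-fold, 3.63 to 5.61). Ptn was at 1 UMI, Nes at 2 and Fabp7 at 0. Nedd9 was at 21 UMIs, 15.4 CPM against 29.9 CPM in T3, which is above the 6.99 CPM of T1. Tubb3 was at 27 UMIs (19.8 CPM), against 13.8 CPM in T3. In these cells Nedd9 was therefore the gene of the 9 with an onset whose level lay between those of the CD24 terciles. Fabp5 was close to T1, at 77.2 against 93.2 CPM, a ratio with an interval of 0.922 to 1.59.

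Whole-culture libraries could exceed every gate made from the same time point. At 48 h, 8 of the 10 genes were higher in the whole culture than in all 4 gates (5 of the 6 with at least 50 UMIs), as were 51.4% of all genes with at least 50 UMIs. Mdk was at 1175 CPM in the whole culture and 235 to 500.1 CPM in the gates. Gpc3 was at 69.5 CPM against 12.7 to 32.8 CPM. At 72 h the count was 4 of 10 (Mdk, Ptn, Fabp7 and Tubb3, with 3 of the 7 that had at least 50 UMIs), against 32.2%. No change is therefore read between RA-treated whole cultures and sorted samples. The comparisons with mESCs below still set sorted cells against libraries with no sort in their labels.

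**Figure D2:**
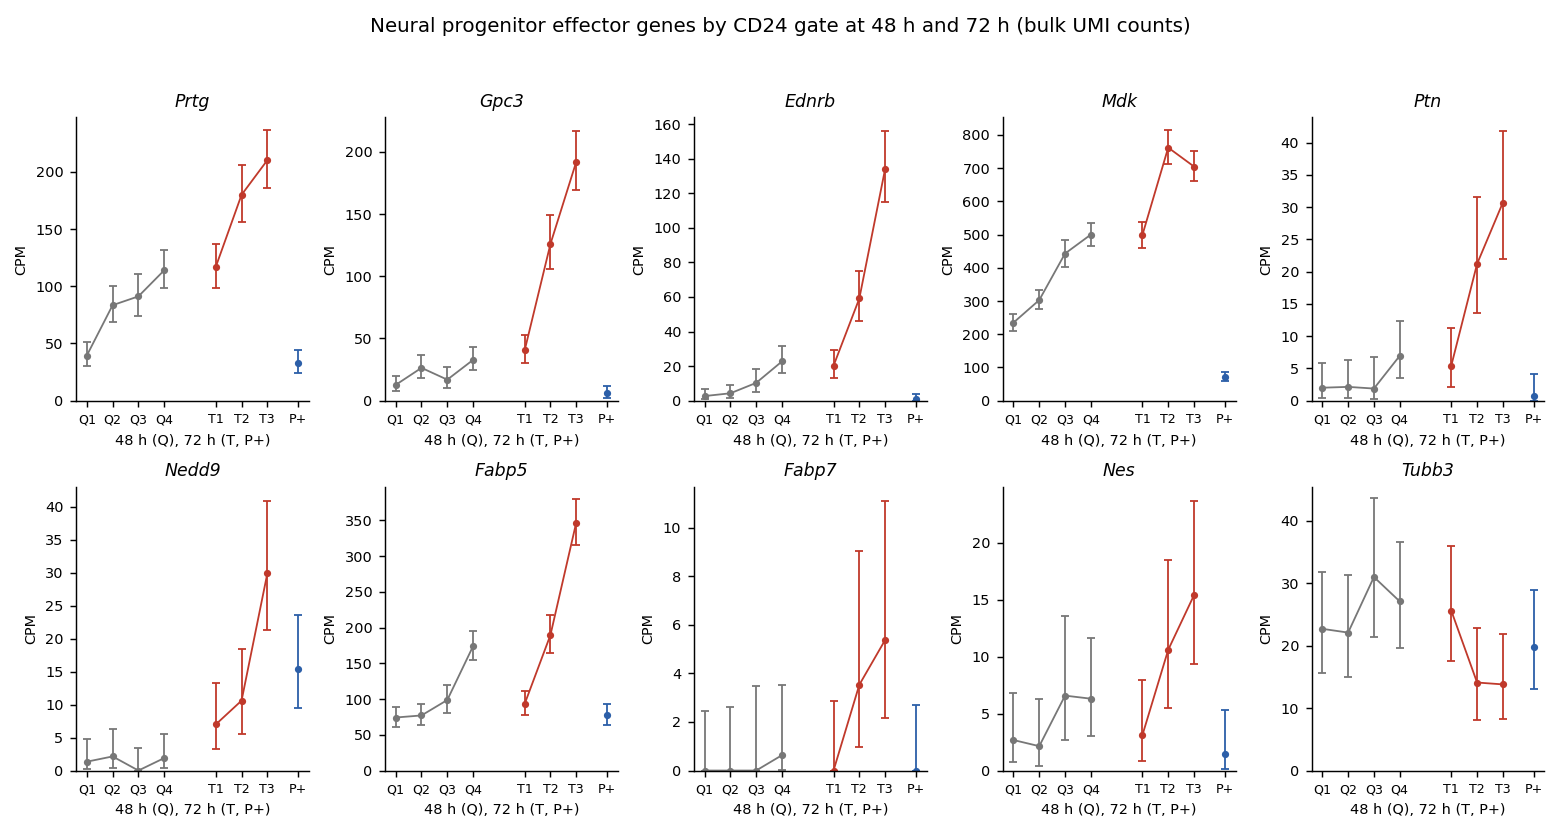
CPM of the 10 genes in the CD24 gates of PDGFRA- cells at 48 h (Q1 to Q4) and 72 h (T1 to T3) and in PDGFRA+ CD24- cells at 72 h (P+), 1 library each, with exact 95% Poisson intervals as bars and linear y axes that differ by panel. Ednrb climbs from 2.68 to 22.7 CPM over the quartiles and from 20.2 to 134 CPM over the terciles, Tubb3 does not climb, and Nedd9 is at 15.4 CPM in P+.

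Sorted cells at 96 h gave the only replicated comparison. The 6 libraries (2 each of mESCs, ectoderm-like and XEN-like cells) were fitted together with edgeR's quasi-likelihood test, and p-values were adjusted over 8945 genes. The mESC libraries carry no sort in their labels, so sorting and cell state cannot be told apart in comparisons with mESCs. Fabp7 did not pass the filter on low counts and was not tested. Of the 9 genes tested, 8 passed the test as higher in the ectoderm-like than in the mESC libraries, against 9.85% of all genes tested (9.29% were lower). Their median log2 fold change was 3.07, against 0.05 over all genes. Of the same 9 genes, 7 were higher in ectoderm-like than in XEN-like cells, against 5.75% of all genes (6.98% were lower). XEN markers were higher in the sorted ectoderm-like replicate 2 than in replicate 1, with 57 against 6 UMIs of Pdgfra, and their part in the values below was not tested.

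Among the receptors, Prtg counted 501 and 353 UMIs in ectoderm-like cells, 76 and 32 in XEN-like cells and 14 and 8 in mESCs. All 3 groups were apart. The log2 fold change to mESCs was 5.39 ± 0.36 (SE, adjusted p = 8.77e-06, edgeR), and that to XEN-like cells was 2.79 ± 0.31 (adjusted p = 6.85e-04). XEN-like cells too were above mESCs, by 2.60 ± 0.37 (adjusted p = 4.76e-04), so protogenin rose in both sorted populations and more in the ectoderm-like cells. The range of the change to mESCs when each library was left out in turn was 5.06 to 5.79.

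Ednrb counted 229 and 179 UMIs in ectoderm-like cells, 2 and 0 in XEN-like cells and 0 and 1 in mESCs. The sum in ectoderm-like cells was 559 times that in mESCs per UMI sequenced (99.7 to 22121; edgeR adjusted p = 1.44e-05) and 187 times that in XEN-like cells (51.4 to 1548; adjusted p = 1.96e-04). In these 6 bulk libraries, Ednrb was at or near 0 outside the ectoderm-like cells together with Ptn and Fabp7 among the 10 genes. The single cells below did not separate Ednrb as far. Gpc3 counted 479 and 299 UMIs, against 27 and 6 in XEN-like cells and 23 and 86 in mESCs. It was higher by 2.93 ± 0.51 on the log2 scale than in mESCs (adjusted p = 0.00227, edgeR) and by 4.40 ± 0.58 than in XEN-like cells (adjusted p = 0.00129). XEN-like cells and mESCs differed by -1.47 on that scale, which did not pass the test (adjusted p = 0.095) but did without mESC replicate 1 (-2.15, 0.00328).

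For the growth factors, Mdk counted 1897 and 826 UMIs in ectoderm-like cells, 844 and 182 in XEN-like cells and 197 and 241 in mESCs. The ectoderm-like replicates were 1.98-fold apart in CPM (1054 and 534), and the higher XEN-like library (429 CPM) came close to the lower of them. The log2 fold change to mESCs was 2.72 ± 0.41 (adjusted p = 9.48e-04, edgeR) and that to XEN-like cells 1.33 ± 0.39 (adjusted p = 0.0458). The latter call was lost without ectoderm-like replicate 1 (0.79, adjusted p = 0.444), without ectoderm-like replicate 2 (1.63, 0.0532) and without XEN-like replicate 2 (0.87, 0.262). Mdk was higher in XEN-like cells than in mESCs as well (1.39 ± 0.40, adjusted p = 0.0257), a call lost without mESC replicate 1 (1.22, 0.103) or XEN-like replicate 1 (0.73, 0.261). Part of the count could come from the pseudogene Mdk-ps1, which shares 6 words of 46 bases with the end of the Mdk transcript. Ptn counted 210 and 104 UMIs in ectoderm-like cells, 1 and 0 in XEN-like cells and 0 and 0 in mESCs. It was at least 51.2-fold higher than in mESCs (edgeR adjusted p = 2.69e-05), and 288 times the level of XEN-like cells (51.3 to 11397; adjusted p = 3.39e-04). Pleiotrophin was thus at 0 or 1 UMI in the XEN-like and mESC libraries, where midkine was present in all 4.

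The lipid carriers differed from each other. Fabp5 counted 570 and 817 UMIs in ectoderm-like cells, 111 and 56 in XEN-like cells and 145 and 44 in mESCs. It was higher by 3.07 ± 0.47 than in mESCs (adjusted p = 0.001, edgeR) and by 2.88 ± 0.47 than in XEN-like cells (adjusted p = 0.00307). XEN-like cells and mESCs overlapped in CPM (51 to 56.4 and 19.2 to 63.4; log2 difference 0.19, adjusted p = 0.802). Fabp7 counted 5 and 81 UMIs in the ectoderm-like replicates, 2.78 and 52.3 CPM, and 0 in all 4 other libraries. The 18.8-fold difference between the replicates (7.75 to 59.6) was the largest among the 10 genes. It was at least 2.12-fold higher than in mESCs by its lower replicate.

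Nes counted 52 and 38 UMIs in ectoderm-like cells, 4 and 3 in XEN-like cells and 9 and 7 in mESCs. It was higher by 2.60 ± 0.43 than in mESCs (adjusted p = 0.00162, edgeR) and by 3.41 ± 0.50 than in XEN-like cells (adjusted p = 0.00192). The groups did not overlap. Nedd9 counted 64 and 45 UMIs in ectoderm-like cells, 46 and 7 in XEN-like cells and 0 and 0 in mESCs. Relative to mESCs it was at least 22.2-fold higher in ectoderm-like cells (adjusted p = 3.27e-04, edgeR) and at least 4.86-fold higher in XEN-like cells (adjusted p = 8.93e-04). Between the sorted populations the log2 difference of Nedd9, 0.96 ± 0.47, did not pass the test (adjusted p = 0.226). Tubb3 counted 30 and 88 UMIs in ectoderm-like cells, 50 and 20 in XEN-like cells and 199 and 115 in mESCs. It was lower in XEN-like cells than in mESCs (-1.84 ± 0.52, adjusted p = 0.0242, edgeR), a call lost when any of mESC replicate 1, XEN-like replicate 1 or XEN-like replicate 2 was left out (0.0817, 0.102 and 0.108). In ectoderm-like cells the log2 difference to mESCs was -1.19 ± 0.49 (adjusted p = 0.118), and -2.40 without ectoderm-like replicate 2 (0.0182). In the comparison of XEN-like cells with mESCs, 3 of the 9 genes were higher and 1 lower, against 12.3% and 10.5% of all genes tested, and without XEN-like replicate 1 the calls were 2 in all.

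**Figure D3:**
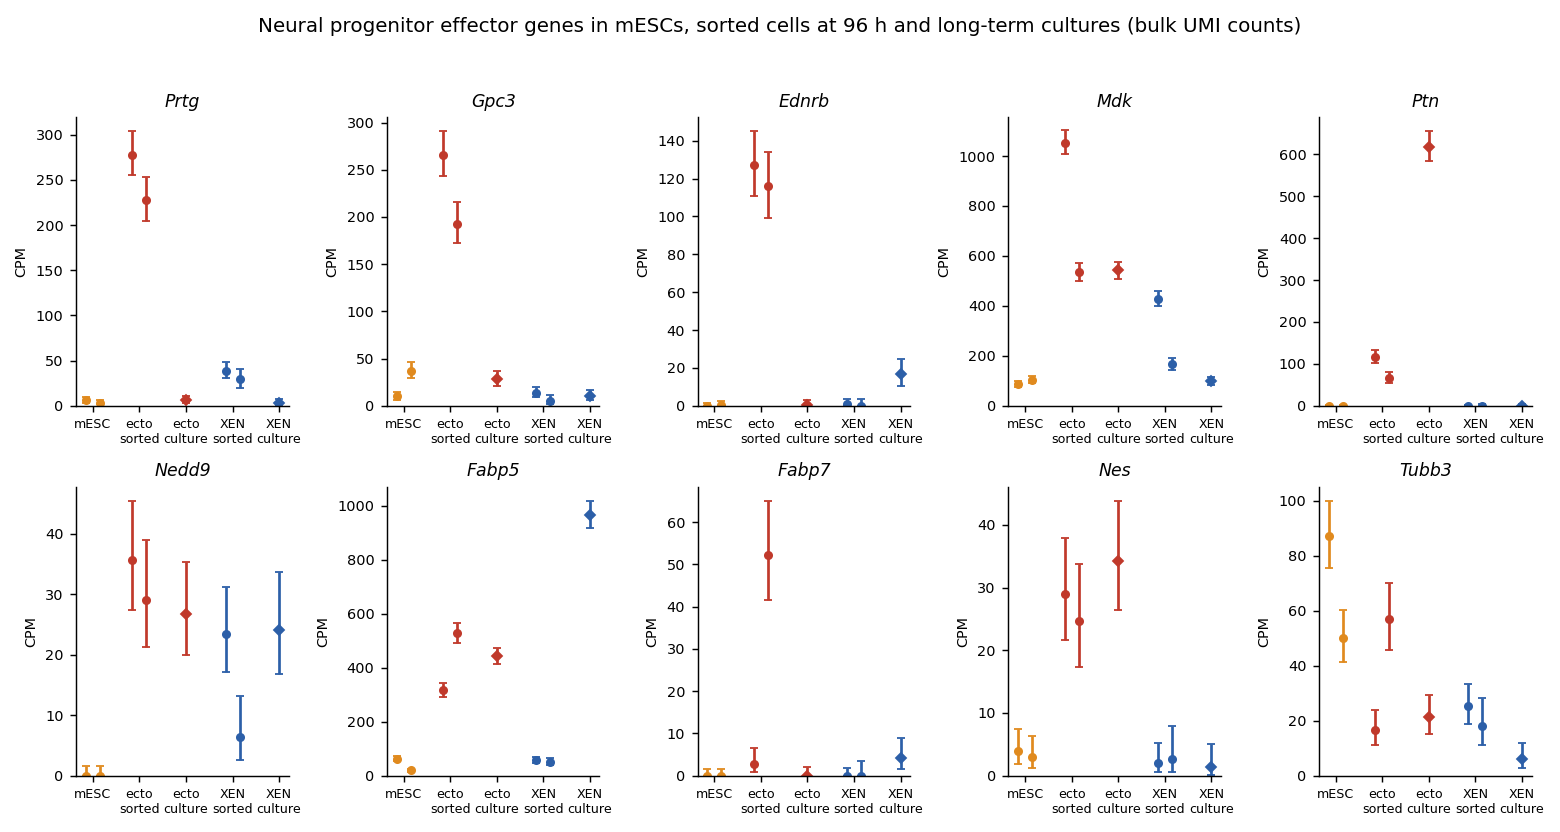
CPM of the 10 genes in mESCs, sorted ectoderm-like and XEN-like cells (2 libraries each, circles) and in the ectoderm-like and XEN-like cultures (1 library each, diamonds), with exact 95% Poisson intervals as bars, on linear y axes that differ by panel. Ednrb is at 116 and 127 CPM in sorted ectoderm-like cells and at 0.535 CPM in the ectoderm-like culture, and Ptn is highest in that culture at 618 CPM.

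Partners and relatives of the genes, from lists fixed by pathway, moved in part with them. Relative to mESCs, the protogenin relative Igdcc3 was higher in ectoderm-like cells (2.90 ± 0.49, adjusted p = 0.00185, edgeR), 1 of 2 genes tested of the 4 in the DCC family. Of 7 tested receptors for midkine and pleiotrophin (13 listed), 4 were higher and 1 lower. Integrin Itgb1 was higher by 2.02 ± 0.30 (adjusted p = 8.39e-04), as were the syndecans Sdc2 (2.14 ± 0.51, adjusted p = 0.0122) and Sdc1 (2.06, 0.00772), and Nrp1 went from 0 and 1 UMIs to 31 and 21, while Sdc4 was lower (-1.17 ± 0.31, adjusted p = 0.0205). The receptor phosphatase Ptprz1, the best known receptor of both factors, was at 0 and 1 UMIs in mESCs and 19 and 5 in ectoderm-like cells and was not tested, and Alk was at 0 in every sorted library and in both cultures. All 3 of the other glypicans that were tested were higher: Gpc1 (0 and 2 UMIs in mESCs, 20 and 9 in ectoderm-like cells), Gpc2 (3 and 1, then 17 and 9) and Gpc6 (3.09 ± 0.57, adjusted p = 0.00314).

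Not all families did the same. Fabp3, the only other fatty acid binding protein with enough counts, was lower in ectoderm-like cells (-3.56 ± 0.82, adjusted p = 0.0101, edgeR). None of 4 other intermediate filaments was higher, and Nefl was lower (-2.04 ± 0.57, adjusted p = 0.0269). Of 5 tested beta-tubulins, Tubb2b and Tubb4b were lower by 0.88 each (adjusted p = 0.0465 and 0.0482). In the endothelin system (3 tested of 6) and among Cas adaptors and partners (4 tested of 8) none passed the test against mESCs. Against XEN-like cells, the ligand gene Edn1 (2.69, adjusted p = 0.0487) and the processing enzyme Ece1 (2.92, 0.0301) were higher. Edn3, the ligand paired with EDNRB in neural crest development, was at 0 in both mESC and both XEN-like libraries and at 1 and 2 UMIs in the ectoderm-like ones.

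Markers of neighbouring cell types stood as follows in ectoderm-like cells against mESCs. Neural progenitor markers were higher in 4 of 6 tested (Sox1, Sox3, Pax6 and Hes5) and lower in 1 (Sox2, -1.36, adjusted p = 0.0166, edgeR), and all 6 were higher than in XEN-like cells. Neuron markers were lower in 3 of 4 tested, including Stmn2 (-4.16, adjusted p = 3.40e-04) and Stmn3 (-2.83, 0.00778), and Rbfox3 was at 0. All 3 neural crest markers tested of 12 were higher: Ets1 (adjusted p = 0.017), Sox9 (4.30 ± 0.70, adjusted p = 0.00151) and Twist1 (3.99 ± 0.78, adjusted p = 0.00402), while the crest genes Sox10, Foxd3 and Erbb3 were at 0. Radial glia and astroglia markers summed to 258 and 309 CPM in ectoderm-like cells and to 238 and 355 CPM in XEN-like cells, with Gfap and S100b at 0 in both. XEN markers were higher than in mESCs in 8 of 11 tested (median log2 fold change 3.79), among them Dab2 (5.64 ± 0.93, adjusted p = 0.00156, edgeR) and Gata4 (5.22 ± 1.18, adjusted p = 0.00934), and all 11 were lower than in XEN-like cells. Their part in the values of the 10 genes was not tested.

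The ectoderm-like culture asked which of the genes persisted after 5 passages. It is 1 library. Its medium, substrate and age all differ from those of the sorted cells, and its label gives no sort, so these cannot be told apart. Of the 10 genes, 3 were at least 2-fold below both sorted replicates (8.38% of all genes with at least 50 UMIs), 1 was at least 2-fold above both (13.7%), and 5 lay within that range. Without sorted ectoderm-like replicate 1, 5 genes were at least 2-fold lower, Fabp7 and Tubb3 being added. Fabp7 was at 0 UMIs in the culture and at 5 and 81 in the sorted cells, so its lower replicate does not separate it from the culture at this depth.

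Prtg fell to 12 UMIs in the culture, from 501 and 353, and was 39.7-fold below the sorted libraries together (22.6 to 77.2). Its level in the culture, 6.42 CPM, is close to the 3.48 and 6.12 CPM of mESCs. Ednrb was at 1 UMI, from 229 and 179 (228-fold, 40.6 to 9016). Gpc3 was at 53 UMIs, from 479 and 299 (8.19-fold, 6.2 to 11).

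Ptn rose to 1155 UMIs (618 CPM) in the culture, from 210 and 104 in the sorted cells, 6.59-fold above them together (5.81 to 7.49). Midkine, its relative, counted 1013 UMIs, from 1897 and 826, and at 542 CPM was next to the lower sorted replicate (534 CPM). Only Ptn of the 10 genes was thus higher in this culture than in both sorted replicates by the fold used. Fabp5 was at 827 UMIs (443 CPM, between the sorted 317 and 528 CPM), Nes at 64 UMIs (34.3 CPM against 28.9 and 24.6) and Nedd9 at 50 UMIs (26.8 CPM against 35.6 and 29.1). Tubb3 was at 40 UMIs, between its sorted replicates in CPM. Marker sets of this culture differed from those of the sorted ectoderm-like cells as well. Neural progenitor markers summed to 12.3 CPM, against 140.2 and 168 CPM, and mesenchyme markers to 3899 CPM, against 19.4 and 22.8 CPM. The neural crest set summed to 140.3 CPM, against 43.9 and 54.5 CPM, with Sox10, Foxd3 and Erbb3 among its genes at 0. Nefh, Ina and Gfap were at 0, while Vim counted 1295 UMIs. The part of these markers in the differences was not tested.

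In the XEN-like culture, Fabp5 was at 1400 UMIs (966 CPM), 17.7-fold above sorted XEN-like cells (15.1 to 20.9) and above every other bulk library. Ednrb was at 24 UMIs there, from 2 and 0 (25.4-fold, 6.3 to 222). These 2 genes were at least 2-fold above both sorted XEN-like libraries, and Prtg (5 UMIs) and Tubb3 (9 UMIs) at least 2-fold below both. Of the 4 genes with at least 50 UMIs there, 1 was above and 2 were below, against 17.5% and 16% of all genes with that many. Cd24a was at 421 CPM in this library, and its part in the levels of Fabp5 and Ednrb was not tested.

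Single cells were used to ask how many of the genes a cell expresses at once. For SCRB-seq, cells were thinned to 2000 UMIs so that depth does not set the shares. The share of cells with a UMI of Prtg was 4.26% at 0 h (11% unthinned), 22.5% at 36 h, 62.1% at 48 h, 71.1% at 60 and 72 h, and 45.3% at 96 h (60.6% unthinned). That of Mdk went from 20.6% at 0 h to 37.9% at 24 h, 80.2% at 60 h and 60.6% at 96 h. Gpc3 was at 6.03% at 0 h, 1.03% at 24 h and 37.9% at 72 h, and in bulk its 24 h level was below that of mESC library 2 but not of library 1. Fabp5 went from 0.709% to 27.2% at 72 h, Ednrb from 1.77% to 18.2% at 96 h and Ptn from 0 of 282 cells (by a floor of 3 counts this allows a UMI in up to 1.06% of thinned cells, and says nothing of how many express it) to 10.2% at 72 h. Nes was at 2.48% at 0 h, 0.345% at 24 h and 11.7% at 96 h. Nedd9 had no UMI in any cell through 36 h (0 of 282 to 0 of 335 cells per plate) and was at 6.57% at 96 h, and Fabp7 had 1 UMI before 72 h and was at 3.65% at 96 h. Tubb3 went from 0.355% at 0 h to 6.55% at 24 h and 2.92% at 96 h, and its level from 0.0743 to 0.398 UMIs per 10000 at 24 h and 0.0963 at 96 h. This rise at 24 h was not seen in bulk, where Tubb3 was at 53.3 CPM at 24 h and at 87.1 and 50.1 CPM in mESCs. The background share from free RNA on the later plates was not measured, so low shares such as those of Fabp7 are given as values only (median depth 3938 UMIs at 0 h and 4028 at 96 h before thinning).

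A cell thinned in this way held a UMI of 0.362 of the 10 genes on average at 0 h, 0.847 at 36 h, 1.78 at 48 h, 2.23 at 60 h, 2.56 at 72 h and 2.04 at 96 h. Cells with 3 or more of the genes were 0.355% at 0 h, 19.5% at 48 h, 48.5% at 72 h and 35.8% at 96 h. Cells with none went from 67.4% to 2.98% at 72 h and were 9.49% at 96 h. Co-detection of pairs was near the product of the single shares: the median ratio of both to product was 1.06 at 48 h (6 pairs with at least 20 cells each), 1 at 60 h (6 pairs), 1 at 72 h (15 pairs) and 1.13 at 96 h (10 pairs). At 72 h, 133 of 235 cells had both Prtg and Mdk (56.6%, product 56.5%), and at 96 h, 12 of 137 had both Gpc3 and Ednrb (8.76%, product 4.93%). Correlations of log2 values over cells were -0.08 to 0.23. These correlations are weak at this depth and are not read as relations.

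Cells at 96 h were split into 2 clusters by their profiles, with the 10 genes, Cd24a and Pdgfra left out. Cluster 1 (70 cells) was led by Sox11, Grb10, Col18a1, Grlf1, Slc39a10 and Cdh2, and cluster 2 (67 cells) by Gm6083, Surf2, Dusp9, Ehd1, Pdia5 and Ank, with the pluripotency gene Dppa5a among its top 10, so the clusters are given by number. XEN markers summed to 80 UMIs per 10000 in cluster 1 and 192 in cluster 2, and neural progenitor markers to 4.63 and 2.11. Of the 10 genes, 9 were higher in cluster 1, all but Tubb3, against 54.2% of the 2679 genes with at least 50 UMIs in these cells. Ptn, Nedd9, Fabp7 and Tubb3 had fewer UMIs than that. In the thinned cells 9 were higher too, but the gene that was not was Fabp7. With 1 plate, intervals cover counting error only. Per 10000 UMIs, Prtg was at 6.47 in cluster 1 and 2.94 in cluster 2 (ratio 2.2, 1.74 to 2.8). Ednrb was at 2.63 and 0.692 (3.8, 2.41 to 6.21), Gpc3 at 3.47 and 1.07 (3.25, 2.25 to 4.82) and Nes at 1.21 and 0.317 (3.81, 1.95 to 8.17). For Ednrb this ratio was far below the 187 between the sorted ectoderm-like and XEN-like bulk libraries, and the reason was not tested. The ratio was smaller for Mdk, 1.6 (1.28 to 2.01), and Fabp5, 1.85 (1.23 to 2.82), and was 2.94 for Ptn (1.35 to 7.06). For Nedd9 (1.56), Fabp7 (1.37) and Tubb3 (0.684), with 19, 10 and 7 UMIs in all, the intervals include 1. When cells were clustered on log2 values, 27 of the 137 cells changed sides (57 and 80 cells), XEN markers were at 40.8 and 183 per 10000, and all 10 genes were higher in cluster 1, Fabp5 by a ratio of 2.99. In cluster 1, 54.3% of the thinned cells held 3 or more of the genes, against 16.4% in cluster 2.

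Earlier cells were assigned to the 0 h profile or to either 96 h cluster by correlation. Cluster 1 held 17.3% of the cells at 48 h, 54.9% at 60 h and 75.7% at 72 h, and cluster 2 held 1.08%, 3.66% and 11.5%. At 48 h the genes were not ahead in the cells assigned to cluster 1: cells still closest to the 0 h profile (226) held 1.83 of the 10 genes on average, and those of cluster 1 (48) held 1.56. Prtg was at 5.42 and 4.59 UMIs per 10000 and Mdk at 6.57 and 6.89 in these classes. At 72 h, cluster 1 (178 cells) was at 9.95 for Prtg, 10.8 for Mdk and 3.53 for Gpc3, and cluster 2 (27 cells) was at 5.42, 7.93 and 0.871. Prtg and Mdk were thus well above their 0 h levels of 0.239 and 1.01 in the cells assigned to cluster 2 as well.

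**Figure D4:**
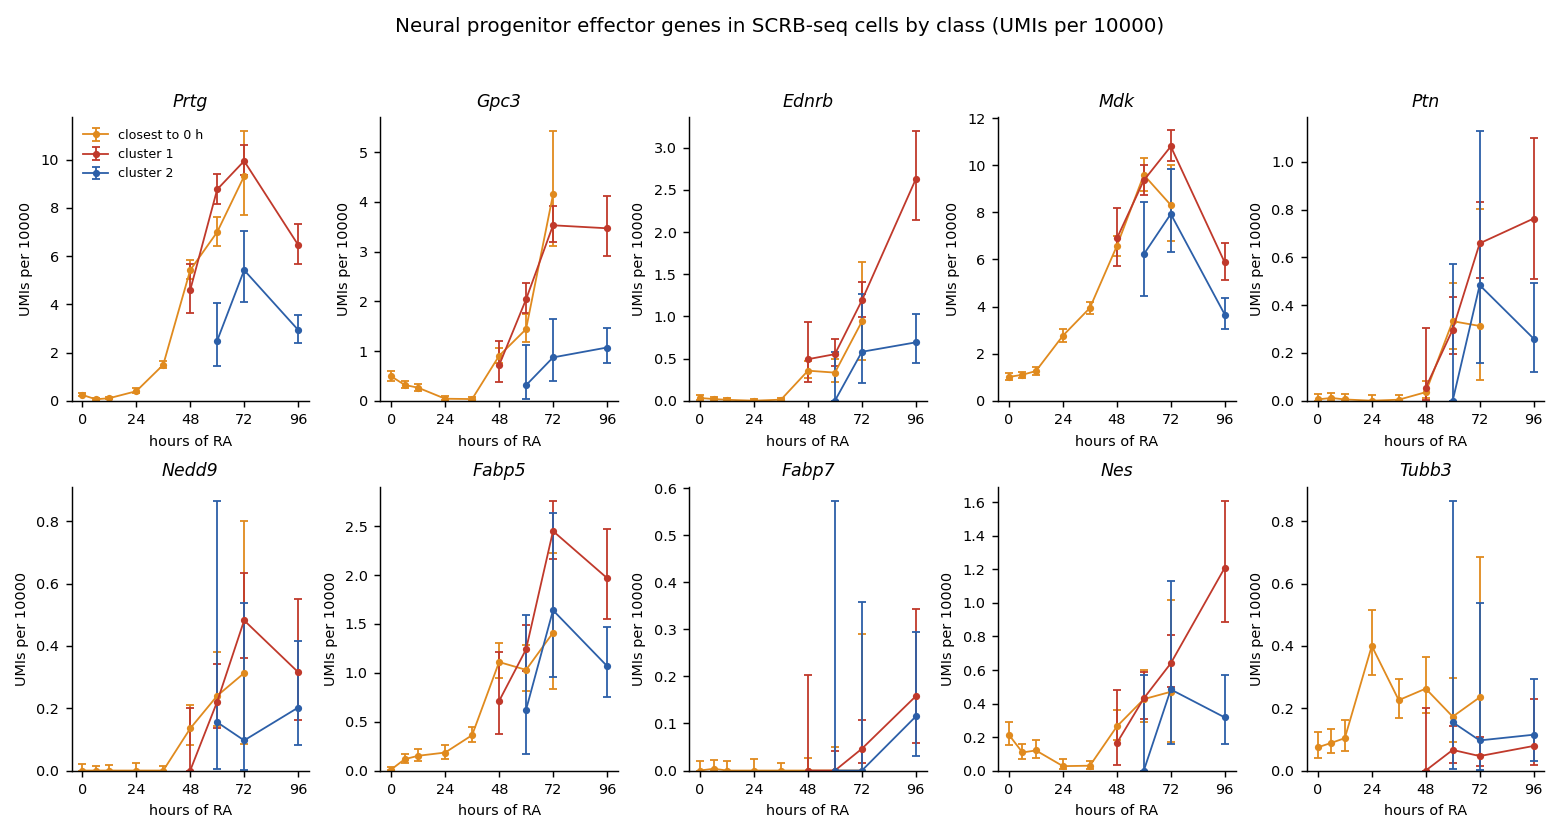
UMIs per 10000 of the 10 genes in SCRB-seq cells against hours of RA, for cells closest to the 0 h profile, to cluster 1 and to cluster 2, with exact 95% Poisson intervals as bars (counting error only) and linear y axes that differ by panel. The 3 cells of cluster 2 at 48 h are not drawn. At 96 h Ednrb is at 2.63 in cluster 1 and 0.692 in cluster 2, and at 48 h Prtg is at 5.42 in cells closest to the 0 h profile and 4.59 in cluster 1.

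SMART-seq2 values are RPKM, per length, and are used here to set levels of different genes side by side. The depth of each cell is unknown, apart from a lower read cutoff that the paper applied. By mean RPKM at 48 h (82 cells) the order was Mdk 1772, Prtg 251, Gpc3 201, Fabp5 50.6, Ednrb 21.4, Ptn 19.2, Tubb3 16.1, Nes 11.4, Nedd9 7.48 and Fabp7 0.576. Mean RPKM at 0 h was 230.0 for Mdk, 45.4 for Gpc3, 37.3 for Tubb3 and 24.7 for Prtg. Prtg thus passed Gpc3 and Tubb3. Among neighbours at 48 h, the means of Prtg and Gpc3 (SD over cells 169 and 247) and of Ednrb and Ptn (SD 38.7 and 29.1) differed by less than the SD. That SD is the spread between cells and no error of the means, so it does not decide their order. Midkine was above 1 RPKM in all 82 cells at 0 h and at 48 h. Prtg was above it in 78% and 95.1% of the cells, Ednrb in 2.44% and 42.7%, and Ptn in 1.22% and 46.3%. Fabp5 went from 39% to 73.2%, Nedd9 from 1.22% to 18.3%, and Tubb3 from 67.1% to 36.6%. Nes was at 30.5% and 32.9%, and Fabp7 was above 1 RPKM in 1 cell at 48 h, at 47.3 RPKM.

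By the sort genes, 26 of the 82 cells at 48 h were high in Cd24a and 7 in Pdgfra, with 3 cells high in both left out. The cut on Cd24a fell between cells at 107 and 102 RPKM, so the Cd24a-high class is a range and no type. Mean RPKM was higher in Cd24a-high cells for 9 of the 10 genes, against 59.5% of the 14700 genes with a mean above 1 RPKM over these cells. Prtg was at 344 and 137 RPKM, Mdk at 2084 and 1039, and Ptn at 27.9 and 4.94. Differences were smaller for Ednrb (33.6 and 25.3) and Gpc3 (300.3 and 232), whose SD over cells in the Cd24a-high class was 45.9 and 328. Nedd9 was the exception, at 5.03 RPKM in Cd24a-high and 28.8 RPKM in Pdgfra-high cells, 3 of which were above 1 RPKM. By the share of cells above 1 RPKM the count was 6 of 10, with Gpc3, Mdk, Nedd9 and Tubb3 not higher. Over the 82 cells, Pearson correlations of log2 values between members (36 pairs) were -0.06 to 0.44 with a median of 0.18, the highest being Prtg with Fabp5. All cells come from 1 sample, so these values carry no p. The median number of the genes above 1 RPKM per cell was 4 at 0, 12 and 24 h and 5 at 48 h, with up to 9 in a cell at 48 h.

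**Figure D5:**
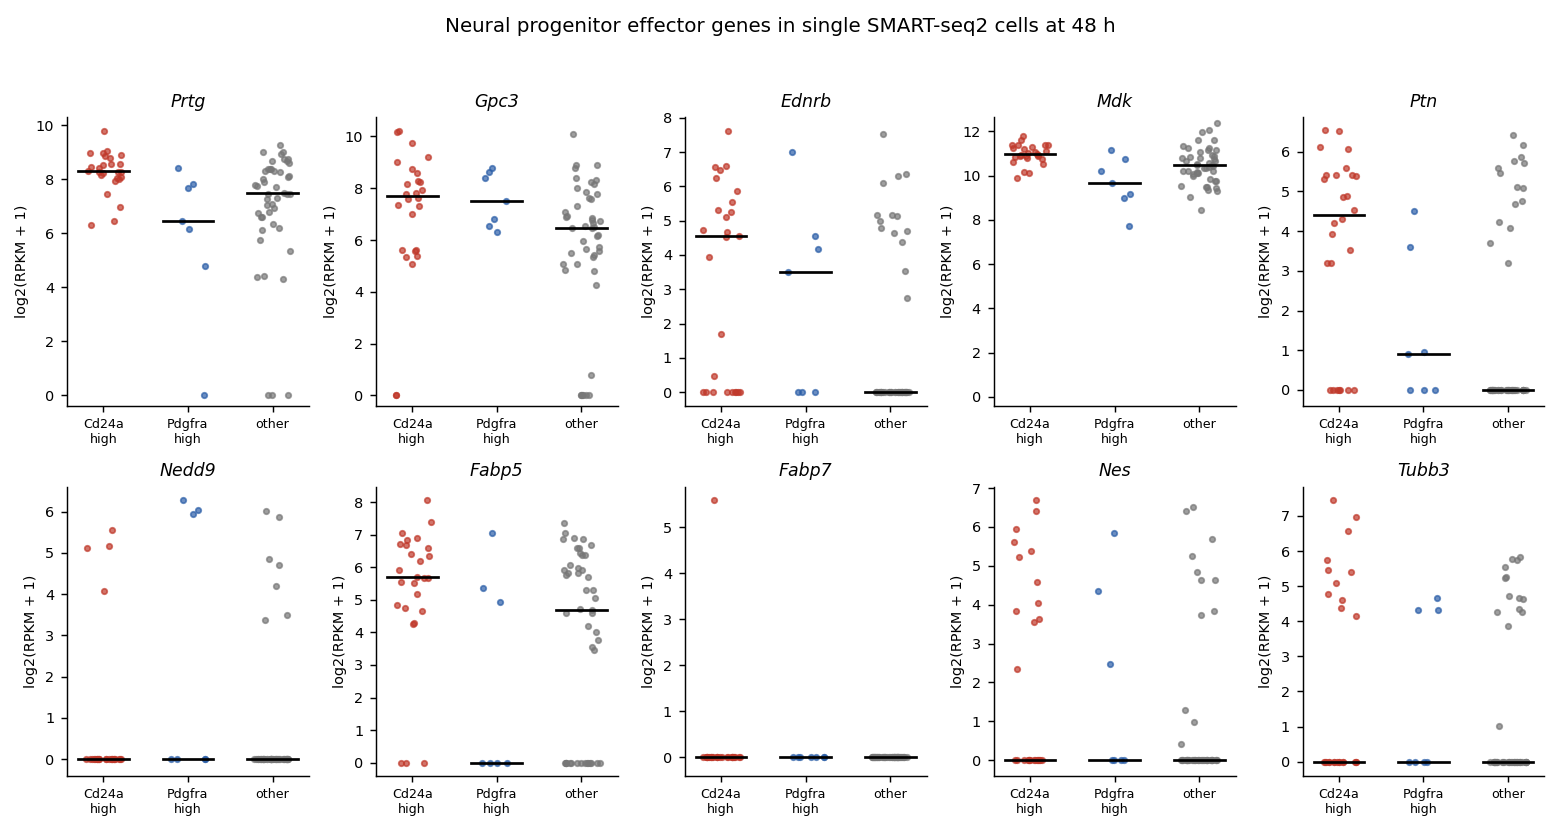
log2(RPKM + 1) of the 10 genes in single SMART-seq2 cells at 48 h (points), for 26 cells high in Cd24a, 7 high in Pdgfra and 46 others, with the median as a line. Prtg and Mdk are present in nearly all cells, and Nedd9 has a mean of 28.8 RPKM in the Pdgfra-high cells against 5.03 RPKM in the Cd24a-high cells.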

How the data were processed

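Bulk RNA-seq and SCRB-seq values are UMI counts, which the authors made from 3′-end reads (aligned to RefSeq transcripts of the mouse by BWA 0.7.4) and deposited without normalization. SMART-seq2 values were deposited by the authors as RPKM (TopHat, Cuffnorm). Whether the counting used strand is not given in the sources used here. The 10 genes, the partner lists and the tests were chosen with earlier results of these data known.

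In bulk, 3 damaged values led to the removal of 2 genes (Rn45s and Gkn2) from all libraries, and 2 repeated gene names were left out of tests. CPM are counts scaled by library totals. The sorted and mESC libraries (2 each) entered edgeR 4.0.16 under R 4.3.3 (TMM factors, filterByExpr, 1 quasi-likelihood fit of the 6 libraries, Benjamini-Hochberg adjustment, threshold 0.05), and DESeq2 1.42.0 was an alternative. Permutation of 2 libraries against 2 cannot go below p = 0.333. Conditions with 1 library were described by exact Poisson 95% intervals and ratios with exact intervals conditional on the summed counts, which cover counting error only. A fold against libraries at 0 used a floor of 3 UMIs per library. Shares of all genes in these comparisons cover genes that reach 50 UMIs in the larger of the libraries.

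Wells of SCRB-seq plates had to exceed 2000 UMIs, and their cells were thinned to 2000 UMIs for shares of cells only. The 96 h cells were clustered on values scaled by depth with k-means (2 clusters, 50 starts) on 1 minus the Pearson correlation over the 5% most variable genes. Doublets were not called. The 9 plates share 384 well names, and no 2 cells had identical profiles. Each SMART-seq2 cell was brought to one RPKM total, the 0 h median. Values with a decimal comma (0.127% to 0.14% per time point, all under 1) were read as decimals. Named genes are the 10 genes, up to 2 genes per direction of each partner list that passed the test, the genes of the marker checks, and the 3 genes most correlated with each. Further genes of the partner lists (Itgb1, Sdc1, Gpc2, Ptprz1, Alk, Edn3, Vim, Nefh and Ina) were named after their values were seen. The edgeR step and the clustering were tested on simulated data. Promoter windows come from RefSeq (GRCm38.p6), gene coordinates from GENCODE M21 (mm10). Python 3.11.15, numpy 2.4.6, scipy 1.17.1, pandas 2.3.3, matplotlib 3.10.9 and BLAST 2.17.0 were used.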

Additional observations from a re-analysis of the deposited data

Results flagged for a closer look

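For 7 of the 10 genes the change from mESCs differed between the sorted populations, tested directly by edgeR as ectoderm-like against XEN-like cells, with all libraries of the one above all libraries of the other. The log2 difference was 2.79 for Prtg, 4.40 for Gpc3, 1.33 for Mdk, 2.88 for Fabp5 and 3.41 for Nes. For Ednrb and Ptn, which had at most 2 UMIs in XEN-like libraries, the ratio of the summed counts was 187 and 288. The difference in Mdk was past the threshold by little (adjusted p = 0.0458, edgeR) and was lost when single libraries were left out. Nedd9 (0.96) and Tubb3 (0.65) did not pass the test, which does not show that they changed alike.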

How the results depend on the processing

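Over 345 alternatives to 38 values, 314 kept direction and side of the threshold or stayed within 1.5 times, 10 lost the call with the same direction, 5 gained it, 14 counts moved and 2 reversed. Both reversals were in differences that did not pass the test: Fabp5 in XEN-like cells against mESCs was -0.42 without mESC replicate 2 and up to 1.23 in the other such runs (0.19 with all libraries), and Tubb3 in ectoderm-like against XEN-like cells was -0.61 without ectoderm-like replicate 2 and up to 1.29 in the others (0.65 with all).

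The number of genes called in all moved with the libraries used. Leaving out 1 library in turn gave 883 to 1748 genes for ectoderm-like cells against mESCs (1712 with all), 1269 to 1957 for XEN-like cells against mESCs (2042), and 267 to 1370 for ectoderm-like against XEN-like cells (1138). DESeq2 gave 1094 and 707 genes for the first and last of these. With fewer libraries there are fewer degrees of freedom. Members called moved in these runs as well, in number or in which genes they were. With all libraries they were 8 for ectoderm-like cells against mESCs, where Fabp7 was not tested. They were 4 for XEN-like cells against mESCs and 7 for ectoderm-like against XEN-like cells. These counts add both directions. Tubb3 in ectoderm-like cells against mESCs, not called with all libraries, was at -2.40 (log2) without ectoderm-like replicate 2. Genes lower in the ectoderm-like culture were 3 to 5 (3 with all), the 5 without sorted ectoderm-like replicate 1, which adds Fabp7 and Tubb3.

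Genes higher in Q4 than in Q1 were 7, but 4 relative to Gapdh and 1 (Ednrb) at a fold of 4, and the cause was not tested. Gapdh, at 2689 and 2769 CPM in the sorted replicates, was at 1494 CPM in their cultured counterpart. At 96 h the median of all genes relative to mESC replicate 1 moved from 0.13 (log2, CPM) to -0.21 with TMM totals. With library totals only, Tubb3 in XEN-like cells against mESCs (-1.63, adjusted p = 0.0562, edgeR) and Mdk between the sorted populations (1.41, 0.0691) lost their calls. With no filter on low counts, Tubb3 in ectoderm-like cells (-1.20, 0.00867) and Gpc3 in XEN-like cells (-1.48, 0.00252) were called, as was Fabp7 (3.06e-15 over 16422 genes) in spite of its 18.8-fold replicate difference.

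The sorted populations share replicate numbers, and the differences between replicates correlated between them (r = 0.33), but 2 pairs do not show that the numbers pair the samples. With the replicate number as a block, 2732 genes were called between the sorted populations (1138 without it), and Nedd9 gained the call (1.01, adjusted p = 0.00801, edgeR). Depth limits Fabp7, Nedd9 and Nes most, each under 100 UMIs in every bulk library.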
